A study of Homo sapiens with 6 samples.

Results

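The genes described here are 58 genes that carry cells through mitosis, taken as a list by gene symbol and followed on the 6 arrays of the series. All 58 were measured, out of 17687 genes with a symbol and 21448 transcripts tested. The cells were MSTO-211H, an established human mesothelioma cell line. Of the 6 cultures, 3 were labelled as treated with an inhibitor of miR-503 (anti-miR-503) for 48 h and 3 as controls, and 1 Clariom S array, which measures expression in 1 colour, was used for 100 ng of total RNA from each culture. The array labels call the controls untreated and also speak of a DMSO vehicle, whereas the study's methods speak both of a negative control and of untreated cells, and these sources do not settle how the control cultures were treated. All cultures were of 1 cell line, so the values describe that line only.

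Cells that divide transcribe most mitotic genes late in the cell cycle, in G2 and mitosis, and stop when they leave the cycle. Many of these genes share a short promoter element, the cell cycle genes homology region (CHR), and 1 or more CCAAT boxes. In resting and G1 cells the DREAM complex, built on the MuvB core with E2F4 and the pocket proteins p107 and p130, holds such promoters silent through the CHR. In cycling cells MuvB instead recruits B-MYB and FOXM1, which activate them, and the factor NF-Y binds the CCAAT boxes. The summed mRNA of these genes therefore serves as a common marker of proliferation in cultures and tumours. In RNA from a whole culture, fewer cells in G2 and mitosis and less mRNA per cell cannot be told apart.

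The inhibited microRNA belongs to the family of miR-15 and miR-16, whose members are known to repress cyclins and other cell cycle genes. The mature sequences from RefSeq (GRCh38.p14) are shown because the seed, bases 2 to 8 and here in capitals, sets which mRNAs a microRNA can pair with. The seed of miR-503 is carried by no other member shown, and the others share 6 of its 7 bases.
miR-503-5p (chrX:134546371-134546393, minus strand): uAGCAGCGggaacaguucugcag
miR-424-5p (chrX:134546680-134546701, minus strand): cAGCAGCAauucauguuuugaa
miR-16-5p (chr13:50049027-50049048, minus strand, 1 of 2 loci): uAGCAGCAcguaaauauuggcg
The seed AGCAGCA of miR-424 and miR-16 is also that of miR-15a, miR-15b, miR-195 and miR-497.

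Promoters of 300 bases, from 250 bases before a transcription start to 50 bases from it, were read from RefSeq for 49 of the 58 genes (60 promoters, since some genes have several starts). The canonical CHR, TTTGAA, and the CCAAT box, CCAAT, were searched on both strands, and a match of one can overlap a match of the other by 1 base at most. TTTGAA was found in 38 of the 60 mitotic promoters (63.3%), against 15.2% of all 35116 promoters of the same length. CCAAT was found in 43 of the 60 (71.7%), against 34.6% of all promoters, and both motifs in 29 of the 60 (48.3%), against 5.90% of all. Counted by gene, 35 of the 49 genes (71.4%) had a TTTGAA, against 18.2% of 27305 genes. Within 50 bases of the start on either side, 51.7% of the mitotic promoters and 4.62% of all promoters held TTTGAA. A match describes the letters in the window and is not a measured binding site.

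The promoters of 5 genes are printed in full, 5′ to 3′ along the gene, with every TTTGAA and CCAAT in capitals (TTCAAA and ATTGG are the same motifs on the other strand). The first 4 belong to genes with some of the largest ranges over the arrays, and the last to KIF18A, which did not follow the others.
KIF20A (chr5:138178862-138179161, plus strand): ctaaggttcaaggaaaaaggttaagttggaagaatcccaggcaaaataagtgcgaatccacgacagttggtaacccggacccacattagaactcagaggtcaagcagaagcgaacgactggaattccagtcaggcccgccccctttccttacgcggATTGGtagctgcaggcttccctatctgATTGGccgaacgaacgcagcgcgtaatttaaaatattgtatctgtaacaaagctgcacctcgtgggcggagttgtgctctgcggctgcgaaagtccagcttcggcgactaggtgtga
CDC20 (chr1:43358731-43359030, plus strand): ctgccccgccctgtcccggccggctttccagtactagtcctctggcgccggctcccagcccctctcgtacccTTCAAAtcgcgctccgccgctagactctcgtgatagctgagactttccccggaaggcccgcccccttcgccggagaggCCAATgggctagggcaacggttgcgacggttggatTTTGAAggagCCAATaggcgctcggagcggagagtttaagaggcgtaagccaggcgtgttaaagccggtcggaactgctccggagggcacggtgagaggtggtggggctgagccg
DLGAP5 (chr14:55191536-55191835, minus strand): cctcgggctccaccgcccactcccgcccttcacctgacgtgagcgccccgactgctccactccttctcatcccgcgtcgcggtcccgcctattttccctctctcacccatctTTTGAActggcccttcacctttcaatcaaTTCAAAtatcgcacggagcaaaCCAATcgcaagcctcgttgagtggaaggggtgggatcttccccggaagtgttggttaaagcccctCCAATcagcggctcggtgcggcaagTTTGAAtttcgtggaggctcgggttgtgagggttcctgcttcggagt
PLK1 (chr16:23678639-23678938, plus strand): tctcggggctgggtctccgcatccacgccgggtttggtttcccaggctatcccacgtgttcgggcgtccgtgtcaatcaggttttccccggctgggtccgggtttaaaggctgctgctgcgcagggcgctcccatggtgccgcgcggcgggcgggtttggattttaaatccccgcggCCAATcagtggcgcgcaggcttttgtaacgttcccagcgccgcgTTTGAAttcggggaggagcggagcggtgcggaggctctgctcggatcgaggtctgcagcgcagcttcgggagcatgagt
KIF18A (chr11:28108107-28108406, minus strand): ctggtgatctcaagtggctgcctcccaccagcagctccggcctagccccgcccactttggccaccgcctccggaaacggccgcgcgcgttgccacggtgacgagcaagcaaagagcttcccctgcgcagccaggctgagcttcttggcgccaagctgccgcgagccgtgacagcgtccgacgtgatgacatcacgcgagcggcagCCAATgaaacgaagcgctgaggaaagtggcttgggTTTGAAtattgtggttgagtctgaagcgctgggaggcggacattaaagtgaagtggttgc
PLK1 had 1 TTTGAA, at position -29 (-1 is the base before the start), and 1 CCAAT at -73. KIF18A had the same arrangement, with TTTGAA at -10 and CCAAT at -45. KIF20A had 2 CCAAT boxes, at -94 and -67, and no TTTGAA in this window. The presence of the motifs thus did not separate KIF18A from the genes with large ranges.

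**Figure D1:**
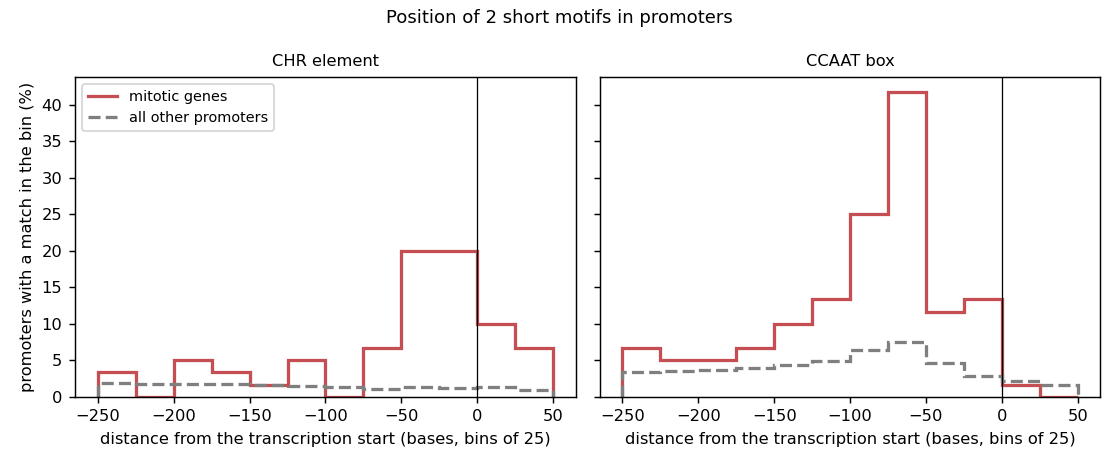
Percent of promoters (vertical axis) with a TTTGAA element (left) or a CCAAT box (right) whose first base lies in each bin of 25 bases, by distance from the transcription start (horizontal axis), for 60 promoters of mitotic genes (solid) and all 35056 other promoters (dashed). In the mitotic promoters TTTGAA was most frequent in the 50 bases before the start, at 20% in each of those 2 bins, and CCAAT in the bin from -75 to -50, at 41.7%.

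Before the groups are compared, 2 arrays have to be named, because they stood apart in these genes. The mean log2 signal over the 58 genes was 8.92, 11.08 and 10.94 in anti-miR-503 replicates 1, 2 and 3, and 10.99, 11.33 and 8.44 in control replicates 1, 2 and 3. Anti-miR-503 replicate 1 and control replicate 3 were therefore both low, and the other 4 arrays lay between 10.94 and 11.33. The gap between the lower edge of those 4 and the higher of the 2 low arrays was 2.02 on the log2 scale. Each group thus held 1 low array. These 2 arrays were also the most alike over all transcripts (Pearson r = 0.991 across transcripts, which are not independent replicates, against 0.980 and 0.977 for anti-miR-503 replicate 1 with the other arrays of its own group). The next most alike, anti-miR-503 replicates 2 and 3, were close to this at 0.989. Anti-miR-503 replicate 1 was also closer to control replicates 1 and 2 (0.984 and 0.987), which were not low, than to its own group. The split of the arrays was known from earlier results, so it is described here without a test.

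The arrays did not differ in this way over all genes. The mean log2 signal over all 17687 named genes lay between 7.46 and 7.49 on every array, and the array medians over all transcripts between 6.56 and 6.63. The background of an array, the 95th percentile of its negative control probes, was 7.75, 7.54 and 7.44 in anti-miR-503 replicates 1, 2 and 3, and 7.83, 8.09 and 7.77 in control replicates 1, 2 and 3. Of the 58 genes, 43, 57 and 55 exceeded it in the anti-miR-503 arrays, and 56, 57 and 34 in the control arrays. In all, 34 genes were above background on all 6 arrays, and GTSE1, a regulator of G2 and mitotic progression, on none. The signals are log2 values made by the authors with RMA, which equalizes the distribution of signals between arrays, so a change shared by most transcripts would not be visible in them.

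Markers of the labelled cell type were present. Of 12 mesothelial markers, 5 (MSLN, CALB2, KRT7, KRT8 and KRT18) were above background on all 6 arrays and 5 on none, WT1, KRT5, PDPN and THBD among these. The mean over the list lay between 8.64 and 9.41 in the anti-miR-503 arrays and between 8.98 and 9.20 in the control arrays. None of 11 leukocyte markers was above background on any array, and their mean lay between 4.59 and 4.87 in the anti-miR-503 arrays and between 4.47 and 4.57 in the control arrays.

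**Figure D2:**
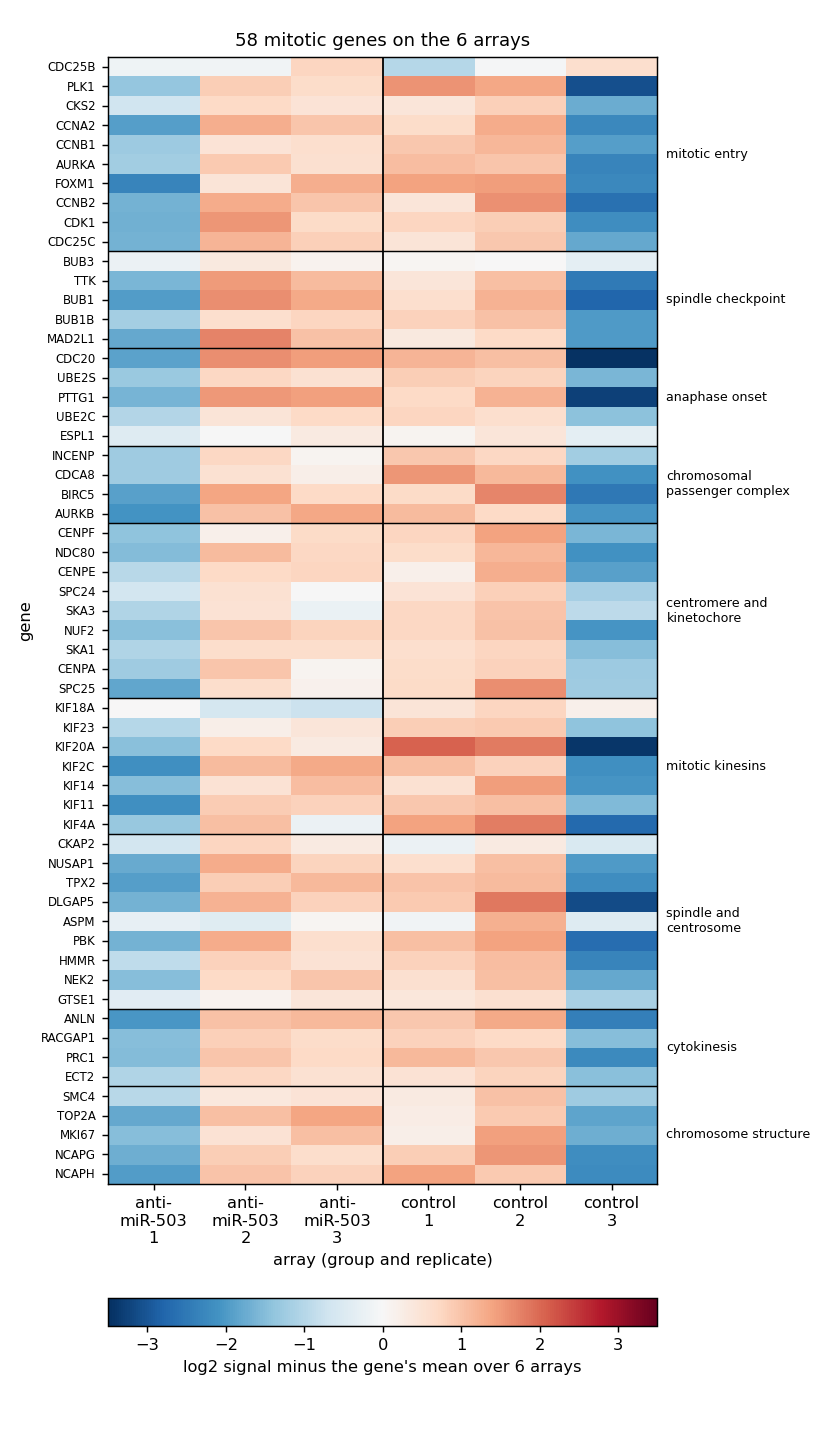
Log2 signal of each of the 58 genes (rows, by function) on each array (columns, the 3 anti-miR-503 arrays left of the 3 control arrays), after subtraction of the gene's mean over the 6 arrays; blue is below and red above that mean. Anti-miR-503 replicate 1 and control replicate 3 are blue for nearly all genes, and CDC25B, KIF18A and ASPM do not share the pattern.

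For 55 of the 58 genes both anti-miR-503 replicate 1 and control replicate 3 were below all 4 other arrays, as were 9.72% of all transcripts tested. For 49 of the 58 the gap was at least 2-fold, against 0.811% of all transcripts (174 of 21448), and for 27 it was at least 4-fold. These counts use the measured signals, and some genes were below background on both low arrays. Set against background, no gap remained for CENPA (-0.25) or for KIF4A, SPC25 and GTSE1 (-0.33 each). It was then under 2-fold for SKA1 (0.33) and CDC25C (0.81), and under 4-fold for MAD2L1, AURKB, BIRC5, KIF11, NUF2 and NEK2. None of the 58 was above the 4 other arrays on both, where 10.5% of all transcripts were. The median gap was 1.91 on the log2 scale. Both further scalings of the arrays, a second quantile normalization and centring on the array median, gave the same counts of 55 and 49. The members were listed with this split in view, so these counts describe the list and do not test it.

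The 2 low arrays were not equally low. Anti-miR-503 replicate 1 was above control replicate 3 in 47 of the 58 genes, by a median of 0.40 on the log2 scale. Among the 34 genes above background on both of these arrays it was above in 28, by a median of 0.31. Over these 34 the difference was highest for PLK1 (1.70), PTTG1 (1.63) and CDC20 (1.59), and lowest for CDC25B (-0.76), KIF18A (-0.16) and ESPL1 (-0.11).

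The genes varied together. The Pearson correlation of each gene with the mean of the other 57 over the 6 arrays had a median of 0.976, and it was at least 0.9 for 51 of the 58 genes. These are descriptions over 6 arrays that fall into 2 clusters, so they mainly restate the split. The lowest values were -0.32 for CDC25B, -0.07 for KIF18A, 0.53 for ASPM, 0.83 for CKAP2, 0.87 for BUB3, 0.89 for ESPL1 and 0.90 for SKA3.

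**Figure D3:**
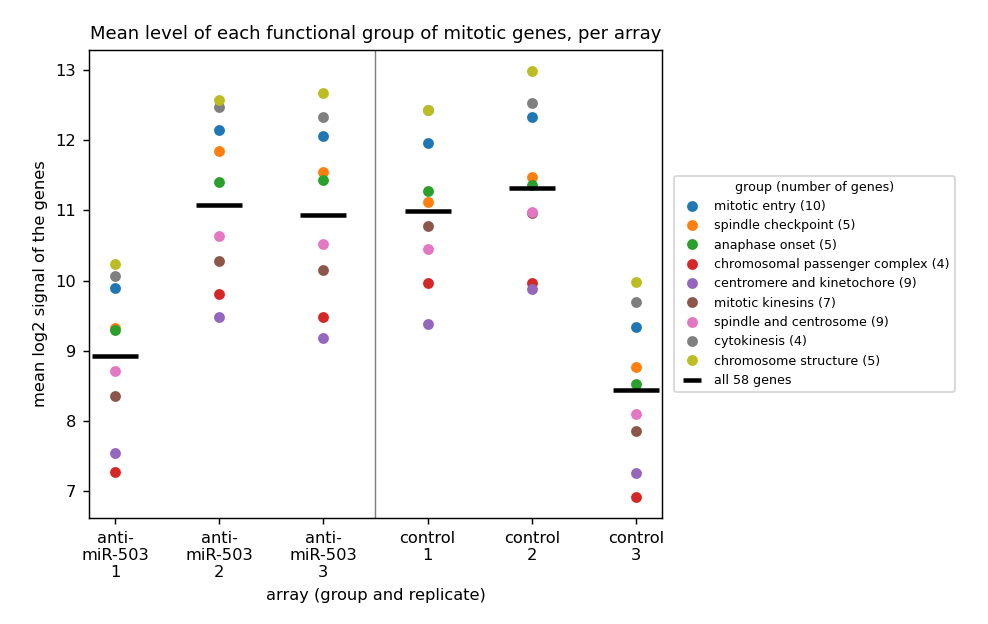
Mean log2 signal (vertical axis) of the genes of each functional group on each array (horizontal axis, the 3 anti-miR-503 arrays left of the 3 control arrays); dots are group means and black bars the mean over all 58 genes, at 8.92, 11.08 and 10.94 in the anti-miR-503 arrays and 10.99, 11.33 and 8.44 in the control arrays. Every group is lowest on anti-miR-503 replicate 1 and control replicate 3; heights of different groups depend on their probes and are not comparable.

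In the account that follows, levels are log2 signals and stand in the order of replicates 1, 2 and 3 of each group. Since the signal of a probe depends on its sequence, levels are compared between arrays and not between genes.

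Genes of mitotic entry switch on the cyclin B and CDK1 kinase that drives cells into mitosis. Their mean over 10 genes was 9.89, 12.15 and 12.06 in the anti-miR-503 arrays and 11.96, 12.33 and 9.33 in the control arrays. Cyclin B1, the activating subunit encoded by CCNB1, was at 10.68, 12.45 and 12.55 in the anti-miR-503 arrays and at 12.91, 13.13 and 10.03 in the control arrays. The transcription factor FOXM1, which activates many genes of this list, was at 8.30, 11.05 and 11.89 in the anti-miR-503 arrays and at 12.01, 12.06 and 8.34 in the control arrays. Both genes were low on the same 2 arrays, by a gap of 1.77 for CCNB1 and 2.71 for FOXM1, and the groups overlapped. PLK1, a kinase that activates cyclin B and builds the spindle poles, was at 11.43, 13.67 and 13.43 in the anti-miR-503 arrays, against 14.37, 14.15 and 9.73 in the control arrays. Its range over the arrays, 4.64 on the log2 scale, was among the 6 largest of the list. Of the other genes of entry, CCNA2, CCNB2, CDK1, CDC25C, AURKA and CKS2 had gaps between 1.14 (CKS2) and 2.56 (CCNA2). CDC25C was below background on both low arrays, so its gap is not an exact value.

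CDC25B, a phosphatase that starts the activation of CDK1, did not share the pattern. It was at 12.64, 12.68 and 13.54 in the anti-miR-503 arrays and at 11.80, 12.74 and 13.39 in the control arrays. The lowest array was control replicate 1, and control replicate 3 was the highest control. None of its 4 RefSeq promoters held TTTGAA. The same was true of 14 of the 49 genes in all, among them CCNB1 and KIF20A, which shared the pattern.

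The spindle checkpoint holds back anaphase until all chromosomes are attached. The mean over its 5 genes was 9.32, 11.84 and 11.55 in the anti-miR-503 arrays and 11.13, 11.48 and 8.77 in the control arrays. TTK, the kinase MPS1 that starts the checkpoint signal, was at 9.23, 12.35 and 11.95 in the anti-miR-503 arrays and at 11.28, 11.90 and 8.38 in the control arrays. BUB1, BUB1B and MAD2L1 were likewise low on 2 arrays, with gaps of 2.55, 1.79 and 2.14. MAD2L1 was below background on both low arrays, and set against background its gap was 1.49. BUB3, a WD-repeat protein that brings BUB1 and BUB1B to kinetochores, varied least of all 58 genes. It was at 13.64, 14.19 and 13.98 in the anti-miR-503 arrays, against 13.92, 13.86 and 13.52 in the control arrays, a range of 0.67 on the log2 scale. Even so, both low arrays were its lowest, by a gap of 0.23.

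Anaphase begins when the anaphase-promoting complex (APC/C) marks securin and cyclin B for destruction. The 5 genes listed for this step had a mean of 9.29, 11.41 and 11.44 in the anti-miR-503 arrays and of 11.27, 11.36 and 8.53 in the control arrays. CDC20, which activates the APC/C, was at 10.91, 14.41 and 14.25 in the anti-miR-503 arrays and at 13.98, 13.84 and 9.32 in the control arrays, a range of 34.0-fold. PTTG1, which encodes securin, was at 9.46, 12.61 and 12.53 in the anti-miR-503 arrays, against 11.78, 12.31 and 7.82 in the control arrays, a range of 27.5-fold. UBE2S, the enzyme that extends ubiquitin chains on APC/C substrates, was at 9.89, 11.92 and 11.72 in the anti-miR-503 arrays and at 12.06, 11.96 and 9.60 in the control arrays. All 3 genes were low on the same 2 arrays, with gaps of 2.93, 2.33 and 1.83. ESPL1, which encodes separase, the protease that cuts cohesin, was much flatter. It was at 8.26, 8.70 and 9.01 in the anti-miR-503 arrays and at 8.80, 9.14 and 8.37 in the control arrays, with a gap of 0.33.

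The chromosomal passenger complex corrects wrong attachments and later acts in cytokinesis. The mean over its 4 genes was 7.27, 9.81 and 9.48 in the anti-miR-503 arrays and 9.97, 9.96 and 6.92 in the control arrays. INCENP, its scaffold, was at 7.93, 9.90 and 9.27 in the anti-miR-503 arrays and at 10.14, 9.91 and 7.97 in the control arrays. CDCA8, which encodes borealin, was at 7.91, 9.69 and 9.36 in the anti-miR-503 arrays, against 10.69, 10.28 and 7.03 in the control arrays. The kinase gene AURKB and BIRC5, which encodes survivin, had the larger gaps of 2.78 and 2.57, and neither was above background on the 2 low arrays.

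Centromere and kinetochore genes build the site where microtubules bind chromosomes. Over 9 genes the mean was 7.55, 9.48 and 9.18 in the anti-miR-503 arrays and 9.38, 9.88 and 7.26 in the control arrays. CENPF, a large protein of the outer kinetochore, was at 9.37, 10.95 and 11.44 in the anti-miR-503 arrays and at 11.52, 12.17 and 9.17 in the control arrays. NDC80, which holds the microtubule end, was at 9.11, 11.73 and 11.33 in the anti-miR-503 arrays, against 11.27, 11.78 and 8.49 in the control arrays. The other members of the NDC80 complex, NUF2, SPC24 and SPC25, had gaps of 2.17, 0.63 and 1.38, so SPC24 separated the arrays least among them. CENPA, NUF2, SKA1, SKA3 and SPC25 were close to background, above it on 2 to 4 arrays, and a signal near background understates a difference.

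Mitotic kinesins move chromosomes and spindle microtubules. Their 7 genes had a mean of 8.36, 10.28 and 10.15 in the anti-miR-503 arrays and of 10.77, 10.96 and 7.86 in the control arrays. KIF20A, needed for cytokinesis, had the widest measured range of all 58 genes, 5.45 on the log2 scale. Its lowest signal, in control replicate 3, was below that array's background of 7.77, and set against this background the range was at least 22.1-fold. KIF20A was at 8.71, 10.87 and 10.49 in the anti-miR-503 arrays and at 12.23, 11.99 and 6.78 in the control arrays. Among genes above background on all 6 arrays CDC20 had the widest range. KIF4A, a chromosome-bound kinesin, was at 6.17, 8.56 and 7.30 in the anti-miR-503 arrays, against 8.92, 9.31 and 4.78 in the control arrays, and above background on 3 of the 6. KIF23, a motor of the central spindle, was at 10.56, 11.78 and 11.98 in the anti-miR-503 arrays and at 12.43, 12.48 and 10.16 in the control arrays. In these 3 genes anti-miR-503 replicates 2 and 3 lay between the 2 low arrays and control replicates 1 and 2. KIF2C and KIF14 had gaps of 2.96 and 1.99 without this step, and the 4 higher arrays of KIF11, above the 2 low ones by 2.36, lay within 0.26 of each other. These 3 genes were below background on both low arrays, so these gaps are not exact values.

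KIF18A, a kinesin that dampens chromosome movements at the metaphase plate, was the other kinesin that went its own way. It was at 12.35, 11.72 and 11.57 in the anti-miR-503 arrays, against 12.78, 13.08 and 12.51 in the control arrays. All 3 anti-miR-503 arrays were below all 3 control arrays. Neither of the 2 arrays that were low in the other genes was its lowest or its highest.

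Spindle and centrosome genes organize microtubules. The mean over 9 genes was 8.71, 10.64 and 10.52 in the anti-miR-503 arrays and 10.45, 10.98 and 8.11 in the control arrays. DLGAP5, which encodes the spindle protein HURP, was at 9.38, 12.25 and 11.86 in the anti-miR-503 arrays and at 11.95, 12.90 and 7.91 in the control arrays, a range of 31.7-fold. NUSAP1, which bundles microtubules near chromosomes, was at 9.32, 12.39 and 11.85 in the anti-miR-503 arrays, against 11.68, 12.15 and 9.12 in the control arrays. TPX2, NEK2, HMMR and PBK showed the same 2 low arrays, with gaps between 1.40 (HMMR) and 2.79 (TPX2). NEK2 was below background on both low arrays, so its gap is not an exact value. CKAP2 was flatter, at 10.48, 11.87 and 11.45 in the anti-miR-503 arrays and at 10.92, 11.45 and 10.59 in the control arrays. ASPM, a spindle pole protein known for its part in primary microcephaly, was the third exception. It was at 10.52, 10.38 and 10.89 in the anti-miR-503 arrays, against 10.69, 12.06 and 10.36 in the control arrays, and stood out only by its level in control replicate 2.

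Cytokinesis genes divide the cell after the chromosomes have separated. Over 4 genes the mean was 10.07, 12.47 and 12.34 in the anti-miR-503 arrays and 12.44, 12.53 and 9.69 in the control arrays. ANLN, which encodes the contractile ring protein anillin, had the largest gap among the genes above background on both low arrays, 2.97 on the log2 scale or 7.82-fold. It was at 10.70, 13.74 and 13.86 in the anti-miR-503 arrays and at 13.67, 14.07 and 10.33 in the control arrays. RACGAP1, a subunit of centralspindlin, was at 10.08, 12.40 and 12.22 in the anti-miR-503 arrays, against 12.38, 12.28 and 10.07 in the control arrays. Its 4 higher arrays lay within 0.18 of each other, and its 2 low arrays within 0.01.

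Genes of chromosome structure condense and untangle the chromosomes. The mean over 5 genes was 10.23, 12.57 and 12.68 in the anti-miR-503 arrays and 12.43, 12.98 and 9.98 in the control arrays. MKI67, whose protein Ki-67 coats mitotic chromosomes and is stained as a proliferation marker in pathology, was at 10.22, 12.22 and 12.78 in the anti-miR-503 arrays and at 11.94, 13.16 and 10.02 in the control arrays. TOP2A, the topoisomerase that untangles sister chromatids, was at 10.55, 13.39 and 13.73 in the anti-miR-503 arrays, against 12.59, 13.25 and 10.50 in the control arrays. The condensin subunit SMC4 was at 12.88, 14.22 and 14.31 in the anti-miR-503 arrays and at 14.16, 14.88 and 12.60 in the control arrays. The gaps were 1.72, 2.04 and 1.28, and the condensin I subunits NCAPG and NCAPH had larger ones, 2.32 and 2.75.

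The study's own comparison asks what inhibition of miR-503 changes in these cells. By label, the mean over the 58 genes was 10.31 ± 1.21 in the anti-miR-503 arrays and 10.25 ± 1.58 in the control arrays (SD, n = 3 each), a difference of 0.06 on the log2 scale. None of the 58 genes passed a 2-fold change with an unadjusted p of 0.05 or less in limma, where 0.872% of all transcripts were called higher and 0.914% lower (187 and 196 of 21448). At an adjusted p under 0.05 (Benjamini-Hochberg over all transcripts) limma called 0 of the 58 genes, and 0% of all transcripts. At an unadjusted p of 0.05 or less it gave 1 of the 58 genes and 1377 transcripts (6.42%). An unpaired t test also called 0 transcripts after adjustment. The log2 fold change was positive for 37 genes and negative for 21, with a median of 0.10, against 0.0098 over all transcripts. With single arrays left out, this median lay between -0.81, when the array was control replicate 3, and 0.76, when it was anti-miR-503 replicate 1. The samples are called biological replicates in the labels. The limma p-values set the group difference against the variance between them within groups, moderated over all transcripts.

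The precision of this comparison was low for these genes in particular. Their median standard error was 0.89 on the log2 scale, against 0.27 over all transcripts. The median SD within a group was 1.29 in the anti-miR-503 arrays and 1.66 in the control arrays, against 0.31 and 0.29 over all transcripts. For 50 of the 58 genes (86.2%) the range over the 6 arrays was at least 2 on the log2 scale, as it was for 5.77% of all transcripts. Over the 4 arrays other than anti-miR-503 replicate 1 and control replicate 3 the median range was 0.77, close to the 0.73 of all transcripts. A difference of 2-fold between the groups was smaller than 2 standard errors for 51 of the 58 genes.

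**Figure D4:**
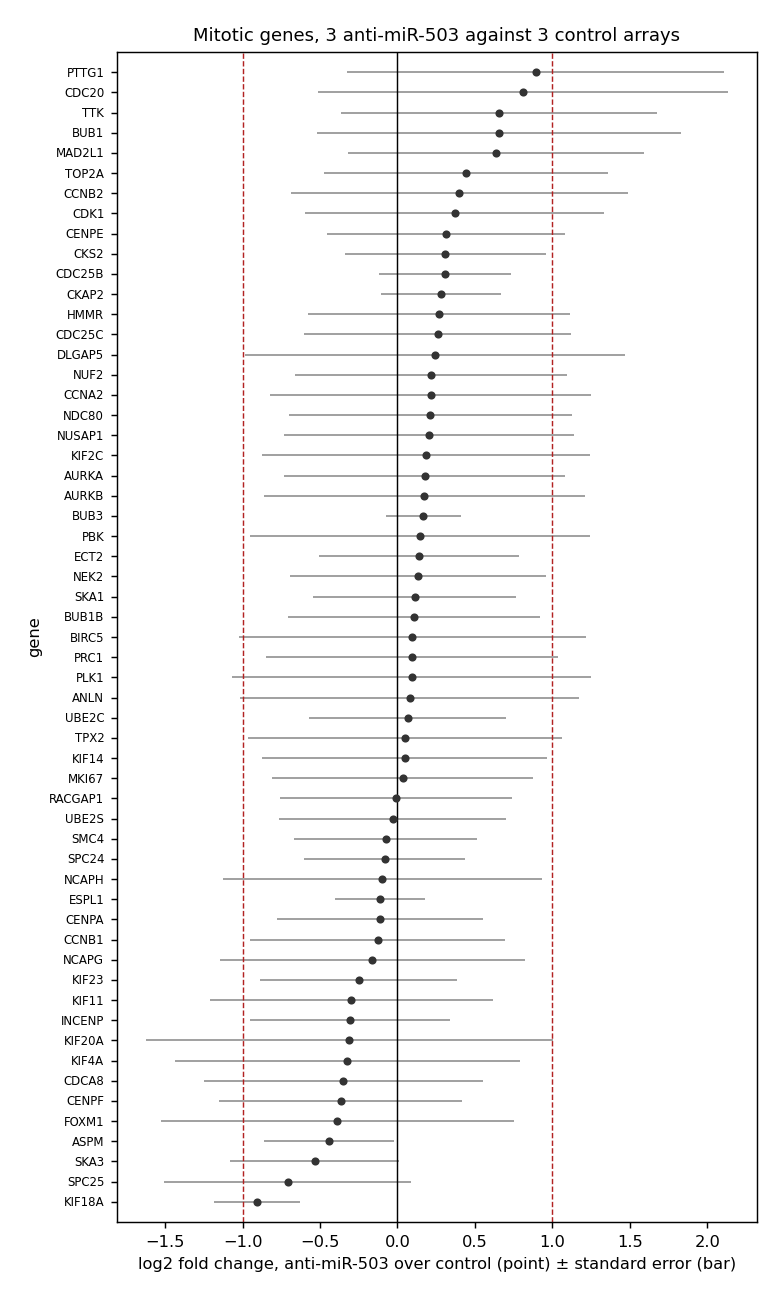
Log2 fold change of anti-miR-503 over control (points) with its standard error from limma (bars) for 57 of the 58 genes (GTSE1, above background on no array, is left out); dashed lines mark 2-fold. The points lie between -0.91 (KIF18A) and 0.89 (PTTG1), none beyond 2-fold, and the bars of all but KIF18A and ASPM reach across 0.

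The fold changes by label lay between -0.91 for KIF18A and 0.89 for PTTG1. KIF18A was the only member with an unadjusted p of 0.05 or less (adjusted p = 0.756 from limma, log2 fold change -0.91, standard error 0.28) and the only one whose groups did not overlap, 1 of 58 against 10.5% of all transcripts. PTTG1 and CDC20, at 0.89 (standard error 1.22) and 0.81 (standard error 1.32), had the highest fold changes, and both groups contained 1 low array. By role, the 5 checkpoint genes all had positive fold changes, with a median of 0.64 and a median standard error of 0.96. Fold changes were also positive for 8 of the 9 spindle and centrosome genes and 8 of the 10 genes of entry. They were negative for 5 of the 7 kinesins, with a median of -0.30 and a median standard error of 0.92. The other roles held genes of both signs, and a difference between roles was not tested. UBE2S and RACGAP1 lay at -0.03 and -0.01 and were above 0 under both further scalings.

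Without anti-miR-503 replicate 1 and control replicate 3, a choice made after the split had been seen, 2 arrays of each group remained and most members still differed little. The median log2 fold change was -0.13, with 38 of the 58 genes below 0. Of all transcripts, 3.09% were then called higher and 4.43% lower, and of the 58 genes 0 were higher and 3 were lower, all kinesins. For KIF20A the log2 fold change was -1.43 (adjusted p = 0.0412 from limma over all transcripts, standard error 0.29), and it alone among the members passed the adjusted threshold, as did 2.37% of all transcripts. KIF18A had -1.28 (standard error 0.28, adjusted p = 0.0516 from limma) and KIF4A -1.18 (standard error 0.41, adjusted p = 0.181 from limma). KIF4A was below background on anti-miR-503 replicate 3, so its fold change is not an exact value. CDCA8 at -0.96, SKA3 at -0.73, PLK1 at -0.71 and MAD2L1 at 0.86 had an unadjusted p of 0.05 or less in limma without reaching 2-fold. The arrays left out were picked for their level in these genes, so these values describe the remaining 4 arrays.

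KIF18A kept its direction whichever array was left out, with log2 fold changes between -1.14 and -0.75. Its groups did not overlap, so leaving out 1 array could not change the sign, and this is no sign of stability. The 2-fold threshold was passed when anti-miR-503 replicate 1 (-1.14) or control replicate 3 (-1.05) was left out, and not when any other array was. BUB3 also kept its sign, between 0.04 and 0.31. Without control replicate 3 alone, which leaves a low array in the anti-miR-503 group only, 1.82% of all transcripts were called lower and 1.38% higher. Of the 58 genes, 0 were then called higher and 6 lower, the kinesins KIF20A (-2.09), KIF4A (-1.77), KIF18A and KIF23 (-1.02) with CDCA8 (-1.50) and SKA3 (-1.13). KIF4A was below background on anti-miR-503 replicates 1 and 3, and SKA3 on anti-miR-503 replicate 1, so their fold changes are not exact values. Without anti-miR-503 replicate 1 alone, which leaves a low array in the control group only, 2.42% of all transcripts were called higher and 3.81% lower. Of the 58 genes, MAD2L1 was then called higher and KIF18A lower. MAD2L1 was at 6.92 in control replicate 3, below that array's background of 7.77, so its fitted log2 fold change of 1.70 is not an exact value.

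Other steps of the cell cycle were followed with lists of genes chosen by function, with earlier results of these data known. MYBL2, NFYC, FBXO5, CHEK1, CCND2, CDKN1A, CDKN2B, TXNIP, TOB1, GADD45B, SESN2 and GAS6 are named from them after their values had been seen. Genes of the G1/S transition and DNA replication, 30 in number, had means of 8.15, 9.64 and 9.50 in the anti-miR-503 arrays and of 9.83, 9.84 and 8.74 in the control arrays. They were low on the same 2 arrays but in another order and to a smaller degree. In 23 of the 30 both arrays were below the other 4, and in 8 by at least 2-fold. Anti-miR-503 replicate 1 was above control replicate 3 in 5 of the 30, with a median difference of -0.56, where it was above in 47 of the 58 mitotic genes. RRM1, a subunit of ribonucleotide reductase, was at 12.68, 14.02 and 14.09 in the anti-miR-503 arrays and at 13.98, 14.31 and 12.97 in the control arrays. TYMS, which makes thymidylate, was at 11.27, 13.28 and 13.36 in the anti-miR-503 arrays, against 13.24, 14.18 and 11.49 in the control arrays.

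By label, 0 of the 30 G1/S genes were called higher and 2 lower, where 0.872% of all transcripts were called higher and 0.914% lower. Their median log2 fold change was -0.42. CCNE2, which encodes cyclin E2, was 1 of the 2 but lay below background on all 6 arrays, so no fold change is given. The other was POLE2, a subunit of DNA polymerase epsilon, at 5.62, 6.95 and 7.05 in the anti-miR-503 arrays and at 7.98, 7.81 and 7.06 in the control arrays, above background on 1 control array only.

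Among the regulators of mitotic transcription, the activator FOXM1, counted with the genes of entry, varied as widely as the mitotic genes. Its range was 3.76 on the log2 scale, where the median of the 58 genes was 3.25. MYBL2, which encodes B-MYB, had a measured range of 3.43. It was below background on both low arrays, so this range is not an exact value. The other 16 regulators listed, mostly MuvB subunits, pocket, E2F and NF-Y proteins, had a median range of 1.29. The widest of these was 2.34, for NFYC, which was above background on all 6 arrays. Over 17 genes of the MuvB core, the E2F, pocket and NF-Y proteins and B-MYB, the means were 9.60, 10.06 and 9.74 in the anti-miR-503 arrays and 10.23, 10.11 and 9.75 in the control arrays, and 5 of the 17 had both low arrays below the others. MYBL2, itself induced in cycling cells, was the 1 with a measured gap of at least 2-fold, which is not an exact value either. It was at 6.73, 8.67 and 8.26 in the anti-miR-503 arrays and at 9.81, 10.09 and 6.66 in the control arrays. TFDP1, the partner of E2F proteins, was at 12.87, 12.74 and 12.26 in the anti-miR-503 arrays, against 13.34, 13.11 and 12.92 in the control arrays. E2F4, the E2F of the DREAM complex, was at 12.85, 12.81 and 12.51 in the anti-miR-503 arrays and at 13.27, 12.79 and 12.69 in the control arrays. None of the 17 was called, where 0.872% of all transcripts were called higher and 0.914% lower.

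Subunits and regulators of the APC/C, 16 in number, had means between 10.55 and 10.73 in the anti-miR-503 arrays and between 10.61 and 10.77 in the control arrays. Their mean thus moved little over the arrays on which CDC20 differed by 34.0-fold, while single genes moved both ways. The median range of the 16 was 0.99 on the log2 scale, against 0.91 over all transcripts, and ANAPC15, named after its values had been seen, lay between 10.82 and 11.56 in the anti-miR-503 arrays and between 10.65 and 13.10 in the control arrays. The only 1 of the 16 with both low arrays below the others was FBXO5, which encodes the APC/C inhibitor EMI1. It was at 6.85, 8.93 and 8.48 in the anti-miR-503 arrays and at 8.23, 8.40 and 7.11 in the control arrays, below background on both low arrays. ANAPC5 and ANAPC7, the subunits with the highest mean signals, were at 12.85, 12.55 and 12.51 and at 12.35, 11.47 and 12.02 in the anti-miR-503 arrays, against 13.41, 13.20 and 12.79 and 12.58, 12.37 and 12.71 in the control arrays.

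CDK inhibitors and genes of growth arrest did not share the pattern as a list. Both low arrays were below the other 4 in 3 of the 21 measured genes (GADD45A, GADD45B and SESN2, against 9.72% of all transcripts) and above them in 1 (GAS6). The mean over the 21 was 9.84, 10.07 and 9.89 in the anti-miR-503 arrays and 9.47, 9.53 and 9.54 in the control arrays, so all 3 anti-miR-503 arrays lay above all 3 control arrays. The groups did not overlap in 7 of the 21, against 10.5% of all transcripts. CDKN2B, among these 7, was below background on all 6 arrays. In TXNIP the lowest anti-miR-503 array (12.87) nearly met the highest control array (12.85), as in TOB1 (13.23 and 13.20). Of the 21, 4 were above background on no array. The log2 fold change was positive for 19 of the 21, against 9182 of 17687 named genes, with a median of 0.31. By label 1 was called higher and 0 lower, against 0.872% and 0.914% of all transcripts. The called gene, the transcription factor KLF4, was at 6.06, 8.02 and 8.18 in the anti-miR-503 arrays and at 5.53, 5.53 and 6.78 in the control arrays, below background on all control arrays and on anti-miR-503 replicate 1, so no fold change is given. CCNG1 encodes cyclin G1, a p53 target. It was at 14.15, 14.31 and 14.25 in the anti-miR-503 arrays, against 13.26, 14.03 and 14.09 in the control arrays. GADD45A, a stress-induced growth arrest gene, was at 12.57, 14.68 and 14.26 in the anti-miR-503 arrays and at 13.29, 12.61 and 12.16 in the control arrays. CDKN1A, which encodes the CDK inhibitor p21, was at 12.71, 12.56 and 11.74 in the anti-miR-503 arrays, against 13.33, 11.85 and 11.76 in the control arrays, and was not higher on both low arrays than on the other 4.

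The G1 cyclins and kinases, with WEE1 and CHEK1, include genes that the miR-15, miR-16 and miR-503 family is known to target. None of the 7 was called, against 0.872% of all transcripts higher and 0.914% lower, and their median log2 fold change was 0.13. CDK4, the kinase partner of D cyclins, was at 14.93, 14.55 and 14.37 in the anti-miR-503 arrays and at 15.07, 14.91 and 14.80 in the control arrays. Cyclin D1, encoded by CCND1, was at 12.82, 13.14 and 12.71 in the anti-miR-503 arrays, against 13.09, 12.54 and 12.65 in the control arrays. CHEK1, a checkpoint kinase that is itself expressed in cycling cells, was the only 1 of the 7 low on both arrays. It was at 9.51, 11.11 and 11.14 in the anti-miR-503 arrays and at 10.62, 11.11 and 9.44 in the control arrays. CCND2, which encodes cyclin D2, was the only 1 higher on both of these arrays than on the other 4, by 0.19. It was at 13.67, 12.71 and 12.31 in the anti-miR-503 arrays, against 9.93, 13.13 and 13.32 in the control arrays. Its log2 fold change was 0.77 (standard error 0.82).

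Reference genes of routine use, 10 of them, had means between 13.78 and 13.85 in the anti-miR-503 arrays and between 13.76 and 14.11 in the control arrays. GAPDH was at 17.71, 17.74 and 17.73 in the anti-miR-503 arrays and at 17.51, 17.70 and 17.58 in the control arrays, and PPIA was at 17.27, 17.22 and 17.20 in the anti-miR-503 arrays and at 17.31, 17.28 and 17.24 in the control arrays. TFRC, the transferrin receptor, was the 1 called, lower at -1.11 on the log2 scale (adjusted p = 0.756 from limma, standard error 0.35). Of all transcripts, 0.914% were called lower.

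**Figure D5:**
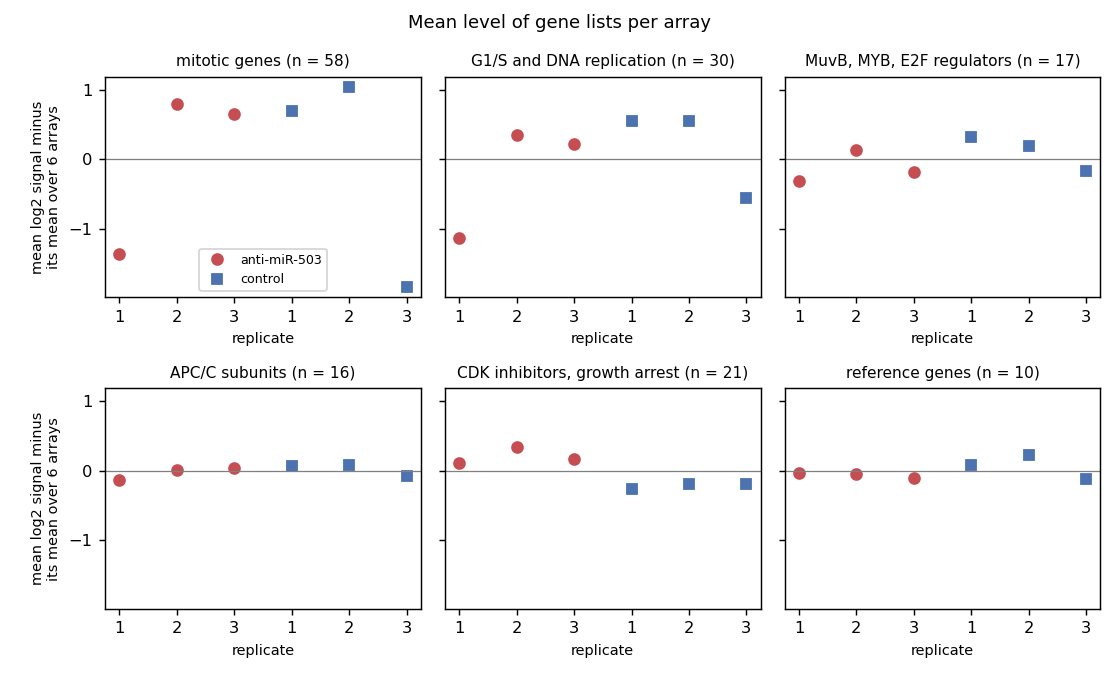
Mean log2 signal of 6 gene lists on each array, after subtraction of the list's mean over the 6 arrays (vertical axis, the same in all panels), for anti-miR-503 (circles, left) and control replicates (squares, right). The mitotic genes spread from 8.92 to 11.08 over the anti-miR-503 arrays and from 8.44 to 11.33 over the control arrays, the G1/S genes less, and the APC/C subunits only from 10.55 to 10.73 and from 10.61 to 10.77.

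Among genes outside the list, the pattern most like the mean of the 58 over the 6 arrays was sought in 775 named genes. These had a range of at least 2 on the log2 scale and were above background on at least 1 array. The 12 most alike had a Pearson r of 0.99 or more over the 6 arrays. CENPW, a centromere protein, was at 6.79, 9.26 and 9.31 in the anti-miR-503 arrays and at 9.22, 9.69 and 6.33 in the control arrays. The kinesin KIFC1 was at 6.38, 9.67 and 9.37 in the anti-miR-503 arrays, against 9.69, 9.95 and 6.39 in the control arrays. CENPW and KIFC1 were below background on both low arrays, as were DEPDC1B and FANCI, and CENPI was above it on anti-miR-503 replicate 2 only. HMGB2, a chromatin protein, was at 11.19, 13.46 and 13.23 in the anti-miR-503 arrays and at 13.03, 13.43 and 10.54 in the control arrays. The others were ORC1, DEPDC1B, RRM2, UBE2T, CENPI, FANCI, CDKN3, TACC3 and RNASEH2A, of which ORC1 and RRM2 are also in the G1/S list.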

How the data were processed

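The deposited log2 signals, 1 for each transcript on each of 6 Clariom S arrays, were made by the authors in the Transcriptome Analysis Console with RMA. The sources used here give neither the RMA variant nor the annotation build. The log2 values were used without further normalization. Of 24351 entries, 2903 array controls were left out and 21448 tested. Symbols came from the platform annotation (17709 entries with 1 symbol, 20 symbols with several entries, of which the one with the highest mean was taken). The 58 genes and the lists were chosen with earlier results of these data known. Background was the 95th percentile of 612 negative control entries per array. Precision is limited by the number of arrays.

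A linear model was fitted to each entry by limma 3.58.1 (R 4.3.3) with moderated variances, and p-values were adjusted by Benjamini-Hochberg over all entries. Calls needed a 2-fold change and an unadjusted p of 0.05 or less. The procedure was tested on simulated data with independent noise for each entry and array, which held no low arrays shared by many genes. Levels on every array are given for MKI67, CDC20, FOXM1 and CCNB1, for the 2 genes of each role with the highest mean, for the 6 with the largest and the 4 with the smallest range, and, of other lists, for called genes and the 2 with the highest mean. Levels of ASPM, the third exception, were added after they had been seen. The split of the arrays was described without a test. Promoter and microRNA sequences were those of RefSeq (GRCh38.p14). The alternatives tried were array weights, a replicate block, an unpaired t test, a variance trend (robust), omission of dim entries, 1 entry per gene, another quantile normalization, centring, other thresholds, other summaries of the genes and leaving out each array. Leaving out 2 arrays together was added after seeing the data. Figures were drawn with matplotlib 3.10.9.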

Additional observations from a re-analysis of the deposited data

How the results depend on the processing

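Over all transcripts the called counts of 187 higher and 196 lower became 38 and 55 with the t test, 118 and 123 without dim transcripts, 342 and 411 with array weights, 703 and 674 with no fold minimum, 613 and 617 at 1.5-fold, and 663 and 951 without anti-miR-503 replicate 1 and control replicate 3 together. Without 1 array they lay between 81 (without anti-miR-503 replicate 3) and 519 (without anti-miR-503 replicate 1) higher and between 82 and 818 lower, for the same arrays. The adjusted count of 0 became 154 without anti-miR-503 replicate 1, 0 without any other single array, and 509 without both arrays. Among the 58 genes, the count of 0 lower became 1 (KIF18A) with array weights, with no fold minimum and at 1.5-fold, and 3 without both arrays, where 1 also passed the adjusted threshold. Without 1 array, 0 to 1 were higher, 0 to 6 were lower and 0 passed the adjusted threshold. Among the other lists, 1 higher became 2 with a second quantile normalization, 3 with centring and 5 without both arrays, and 3 lower became 6 without both. Without 1 array these counts lay between 0 and 5 higher and between 1 and 9 lower.

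The median log2 fold change of the 58 genes, 0.10, stayed between 0.02 and 0.15 under the other scalings and weights, was -0.13 without both arrays and lay between -0.81 and 0.76 without 1 array. The difference of the array means, 0.06, was -0.01 with array weights and lay between -0.84 and 0.76 without 1 array. UBE2S and RACGAP1 turned to 0.014 and 0.022 with a second quantile normalization, and to 0.0026 and 0.023 with centring. Without both arrays MKI67 (-0.049), PLK1 (-0.71), ANLN (-0.067) and DLGAP5 (-0.37) turned negative. Log2 fold changes without 1 array changed sign in 24 of the 26 genes with levels given by the rule, with these ranges: MKI67 -0.81 to 0.79, CDC20 -0.72 to 1.95, FOXM1 -1.62 to 0.67, CCNB1 -1.12 to 0.48, SMC4 -0.71 to 0.42, TOP2A -0.37 to 1.45, CDC25B -0.12 to 0.68, PLK1 -1.42 to 0.90, UBE2S -0.84 to 0.61, TTK -0.42 to 1.63, INCENP -0.99 to 0.24, CDCA8 -1.50 to 0.33, CENPF -1.26 to 0.24, NDC80 -0.80 to 1.02, KIF23 -1.02 to 0.19, CKAP2 -0.0215 to 0.68, NUSAP1 -0.73 to 1.14, ANLN -1.10 to 1.11, RACGAP1 -0.76 to 0.73, KIF20A -2.09 to 0.64, DLGAP5 -1.26 to 1.23, PTTG1 -0.52 to 1.93, KIF4A -1.77 to 0.50 and ESPL1 -0.31 to 0.0898. KIF18A (-1.14 to -0.75) and BUB3 (0.04 to 0.31) kept their signs, which for KIF18A was fixed in advance, since its groups did not overlap. The cause of the sign changes was not tested.

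With the replicate block, 197 transcripts were higher and 228 lower, 0 passed the adjusted threshold, 0 of the 58 genes were called, and 2 genes of the other lists were higher and 2 lower. Deviations of same-numbered arrays from their group means correlated at -0.100, 0.213 and 0.000, and not every array correlated best with its own number. The highest value, 0.245, was between anti-miR-503 replicate 1 and control replicate 3, the 2 low arrays. With 1 low array in each group, these correlations do not settle whether the numbers pair the cultures.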

Other observations

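Genes with the opposite pattern, high on anti-miR-503 replicate 1 and control replicate 3 and lower on the other 4 arrays, were also present. Among the 775 named genes compared, the 12 with the lowest Pearson r to the mean of the mitotic genes (-0.96 to -0.92 over 6 arrays, given as a description) were ANKRD10, C3, TAS2R4, CFAP69, FAM50A, FST, IGF2, PIEZO2, SLC25A27, TTC17, NUPR1 and DSEL. FST, which encodes the activin antagonist follistatin, was at 14.08, 12.50 and 12.53 in anti-miR-503 replicates 1, 2 and 3, and at 12.07, 12.75 and 14.92 in control replicates 1, 2 and 3. NUPR1, a stress-induced chromatin protein, was at 10.46, 8.12 and 8.02 in the anti-miR-503 arrays, against 9.38, 8.28 and 10.92 in the control arrays. ANKRD10 was at 14.03, 13.02 and 12.72 in the anti-miR-503 arrays and at 12.58, 12.14 and 14.86 in the control arrays. All 3 genes were above background on all 6 arrays and higher on both of these arrays than on the other 4, by at least 1.33, 1.09 and 1.00 on the log2 scale. The complement gene C3 was at 8.53, 6.41 and 6.10 in the anti-miR-503 arrays, against 5.34, 6.11 and 9.29 in the control arrays. Like CFAP69 and IGF2, it was above background only on those 2 arrays. TAS2R4, PIEZO2 and DSEL were above background on control replicate 3 only. These genes thus entered the comparison only through arrays where they were high. All 12 were picked by their correlation with the split, so they describe it and do not test it.

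Single mesothelial markers also differed over the arrays, in both directions. The lectin gene ITLN1, a marker of mesothelial cells, was at 11.43, 7.27 and 7.57 in the anti-miR-503 arrays and at 9.88, 7.59 and 12.10 in the control arrays, and the mesothelial surface protein gene MSLN was at 12.35, 11.18 and 11.12 in the anti-miR-503 arrays and at 11.77, 10.86 and 12.49 in the control arrays. With PDPN, below background on all arrays, these made 3 of the 12 markers that were higher on both anti-miR-503 replicate 1 and control replicate 3 than on the other 4 arrays, against 10.5% of all transcripts. CALB2 and KRT8 were lowest of the 6 arrays on control replicate 3, at 9.75 and 17.02. The mean of the 12 was 9.41 in anti-miR-503 replicate 1 and 9.20 in control replicate 3, its highest values, but this rested on ITLN1. Without it, the mean of the other 11 was 9.23, 8.77 and 8.94 in anti-miR-503 replicates 1, 2 and 3, and 9.03, 9.11 and 8.94 in control replicates 1, 2 and 3. These genes were named after their values had been seen, and what the pattern reflects was not tested.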
